A study of Mus musculus with 2 samples.

Results

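Lysosome and autophagy genes were followed in single-cell RNA sequencing of haematopoietic stem cells (HSCs) from mouse bone marrow. The list holds 37 of the 32285 genes measured, taken by symbol: 9 lysosomal proteases, 4 other hydrolases or hydrolase activators, 6 genes of the lysosomal membrane and of lipid and ion export, the transcription factors Tfeb and Tfe3, 5 genes of the proton pump, 5 genes of autophagosome formation, and 6 genes for cargo receptors and ATG8 proteins. The ST-HSC library was labelled as short-term HSCs, sorted as lineage-negative Sca-1-positive Kit-positive (LSK) cells that were CD34-, CD150+ and CD48+. The LT-HSC library was labelled as long-term HSCs, sorted as LSK cells that were CD34-, CD150+, CD48- and Flk2-. Both came from wild-type (WT) mice of the C57Bl6 strain, 8 weeks old by the series title, with 1 library per group and no statement of how many animals were pooled. Each library was made with the 10x Genomics 3' chemistry, which tags each captured RNA molecule with a unique molecular identifier (UMI).

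Lysosomes are acidic compartments in which hydrolases break down proteins, lipids, glycogen and glycans delivered by endocytosis or by autophagy. In autophagy the ULK1 complex and the Beclin 1 lipid kinase complex start a membrane, ATG7 and ATG5 act in coupling ATG8 proteins (the LC3 and GABARAP families) to lipid on it, and receptors such as p62 (Sqstm1) bring cargo. TFEB and TFE3 are basic helix-loop-helix factors of the MiT/TFE family that bind CACGTG-type sites in the promoters of many lysosomal genes. In HSCs, lysosomal activity and autophagy are known for their part in maintaining quiescent cells and in clearing mitochondria.

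A barcode entered the analysis if it showed 1000 or more genes and had less than 10% mitochondrial UMIs, which left 6648 ST-HSC cells with 111783180 UMIs and 2722 LT-HSC cells with 64673871 UMIs. The median kept cell held 13402 UMIs in the ST-HSC library and 17595 in the LT-HSC library, and a median of 3.47% and 1.60% of UMIs came from mitochondrial genes in ST-HSC and LT-HSC cells. Against the sorting labels, Slamf1 (CD150) stood at 1.26 CPM in the ST-HSC library and 26.5 CPM in the LT-HSC library, and Cd34 stood at 242 and 29.2 CPM in ST-HSC and LT-HSC. Cd48, 74.7 CPM in ST-HSC against 35.3 CPM in LT-HSC, followed the labels. Flt3 (Flk2), which the labels name only for LT-HSC, stood at 291 CPM in ST-HSC and 5.50 CPM in LT-HSC. Among kept cells, 6 barcodes occurred in both libraries. Each group being a single library, spread between replicates is unknown and no test was made. UMIs were summed over cells and scaled to CPM (UMIs divided by the summed UMIs of the cells, times 1000000), and each ratio carries a 95% interval that covers counting error only, since cells of 1 library are not replicates. Calls go by size alone: a gene counts as lower when its ratio does not exceed 0.8, and as higher when the inverse of its ratio does not. It enters the counts where the mean CPM of both sides is at least 5.

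Cells were also classed by defining genes, per 10000 UMIs of the cell except for Dntt, where at least 2 UMIs in the cell were needed. Hlf-high cells (at least 4 Hlf UMIs per 10000 and in none of the next classes) numbered 2575 in ST-HSC and 600 in LT-HSC. Hlf encodes a transcription factor of HSCs. The 8 stem cell markers of the list used here, Hlf among them, summed to 2735 CPM in ST-HSC and 2574 CPM in LT-HSC Hlf-high cells. Hlf itself gave 935 CPM of the ST-HSC sum and 667 CPM of the LT-HSC sum, and the class rule sets a lower limit on it. The similar sums hide differences between genes: 2 of the 8 were higher and 6 lower in ST-HSC (median log2 ratio -0.93), with Procr, for the protein C receptor, at 45.9 CPM in ST-HSC and 90.9 CPM in LT-HSC. The ST-HSC library held 1632 Dntt-positive cells (Dntt is a gene of lymphoid progenitors) and 267 Mpo-positive cells (Mpo is a granule gene of neutrophil and monocyte progenitors), against 1 and 0 in LT-HSC. Car1-high cells, with an erythroid carbonic anhydrase, numbered 42 in ST-HSC and 458 in LT-HSC, and Pf4-high cells, with a megakaryocyte chemokine, numbered 11 in ST-HSC and 253 in LT-HSC. In LT-HSC the 7 erythroid markers, Car1 among them, summed to 8906 CPM in Car1-high and 92.1 CPM in Hlf-high cells. The 7 megakaryocyte markers, Pf4 among them, summed to 6521 CPM in Pf4-high and 176 CPM in Hlf-high cells. The class rules fix part of both differences, since these cells were chosen by Car1 or Pf4. A class with fewer than 50 cells in a library was not compared there. Within 25% of the Hlf limit lay 1008 ST-HSC and 336 LT-HSC cells.

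Promoters were taken from RefSeq (build GRCm38.p6; 250 bases before to 50 after the start) and matched 29 of the 37 members. The motif CACGTG, the E-box, which is its own reverse complement, was in 11 of these 29 windows (37.9%), against 8.09% of all 27025 promoters and 12.3% of the 8309 promoters of genes that entered the library comparison. The extended forms TCACGTGA, GTCACGTG and its reverse complement CACGTGAC form the core of the CLEAR element of lysosomal genes. At least 1 of them was in 8 of the 29 members (27.6%), against 2.77% of all promoters and 5.58% of those of the genes compared. The 8 were Ctsa, Ctsd, Lamp1, Lgmn, Mcoln1, Atp6v0d1, Atp6v1a and Atg7. The windows below show, for 7 of them, the match nearest the start among those that lie before it, on the coding strand and 5′ to 3′, with the E-box and its extension in capitals. They are shown because the element was in a larger share of the members than of all promoters. Ctsa holds a further match after its start, at position 6.
Ctsa, chr2:164833743-164833772: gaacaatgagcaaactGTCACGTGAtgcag
Ctsd, chr7:142387908-142387937: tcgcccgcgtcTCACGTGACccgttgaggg
Lamp1, chr8:13159081-13159160: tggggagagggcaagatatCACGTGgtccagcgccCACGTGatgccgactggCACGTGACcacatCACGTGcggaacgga
Lgmn, chr12:102439121-102439200: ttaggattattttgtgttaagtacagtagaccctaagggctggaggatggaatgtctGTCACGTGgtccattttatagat
Mcoln1, chr8:3500462-3500491: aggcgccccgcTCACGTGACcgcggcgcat
Atp6v1a, chr16:44139369-44139448: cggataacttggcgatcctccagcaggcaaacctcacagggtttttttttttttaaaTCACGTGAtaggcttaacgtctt
Atg7, chr6:114670905-114670984: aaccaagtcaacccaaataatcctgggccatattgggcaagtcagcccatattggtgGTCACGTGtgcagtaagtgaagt

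Ctsa, Lamp1 and Mcoln1 lie on the plus strand, as does Atg7, while Ctsd, Lgmn and Atp6v1a lie on the minus strand. The Atg7 window lies well inside the gene as annotated in GENCODE M21 (chr6:114643097-114860614), so the start used there is an internal one. The windows of Ctsa, Ctsd, Lgmn, Mcoln1 and Atp6v1a also lie within the genes as annotated there. Only the Lamp1 window lies before its annotated gene. Lamp1 held 4 copies of CACGTG within 61 bases before its start, the most of any member. A match is a description of letters and not a bound site. In the library comparison, of 10 compared members with CACGTG 3 were higher and 2 lower in ST-HSC (median log2 ratio 0.02), and of 18 without it 8 were higher and 1 lower (median 0.30); the difference was not tested.

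Over all kept cells, the list held 0.247% of UMIs in the ST-HSC library and 0.219% in the LT-HSC library, or 41.5 UMIs per ST-HSC cell and 52.1 per LT-HSC cell. Of 36 members compared, 15 were higher in ST-HSC (41.7%) against 38.5% of the 10412 genes compared, and 4 were lower (11.1%) against 23% of genes. At limits of 2 and 0.5, 6 members were higher (16.7%, against 10.8% of genes) and 1 was lower (2.78%, against 2.88%). The share of members higher was thus close to the background, and the share lower was below it. The median log2 ratio was 0.24 over the members and 0.12 over all genes. Scaling by trimmed mean of M-values (TMM) factors moved the median of all genes to -0.01 and the higher share of all calls from 62.6% to 49.9%; by the median of ratios that share was 48.7%. With only cells of at least 2000 genes and under 5% mitochondrial UMIs the counts were again 15 higher and 4 lower. Without Car1-high and Pf4-high cells they were 10 higher, against 30.1% of genes, and 7 lower, against 22.3%, so the lower count moved nearer to the background.

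The proteases showed the widest span. Ctss, encoding cathepsin S, a cysteine protease of antigen-presenting cells, had 5355 UMIs in ST-HSC (47.9 CPM) and 585 UMIs in LT-HSC (9.05 CPM), a ratio of 5.30 (interval 4.86 to 5.78). Ctsh, for the aminopeptidase cathepsin H, had 23.5 CPM in ST-HSC and 8.92 CPM in LT-HSC, a ratio of 2.64 (2.41 to 2.89). Ctsl, for the endopeptidase cathepsin L, went the other way, with 31.7 CPM in ST-HSC against 65.1 CPM in LT-HSC, 2.05-fold lower (1.96 to 2.15). It was the only member at or under a ratio of 0.5. Ctsb, Ctsc and Ctsz, 3 further cysteine cathepsins, were higher at ratios of 1.27, 1.38 and 1.26. Ctsa and Ctsd, which encode a serine carboxypeptidase and the aspartic protease cathepsin D, had ratios of 1.01 and 1.02, and the counts behind Ctsd (12991 UMIs in ST-HSC and 7398 in LT-HSC) put its interval at 0.987 to 1.05. Lgmn, for legumain, which processes other cathepsins, missed the level limit with 4.01 CPM in ST-HSC and 0.371 CPM in LT-HSC (448 and 24 UMIs), a ratio of 10.8 (7.17 to 17.0).

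All 4 other hydrolases or activators had ratios above 1.2, where the median ratio of all genes was 1.09. Psap, whose product is cleaved into the saposins that help enzymes act on sphingolipids, had 189 CPM in ST-HSC and 63.8 CPM in LT-HSC, a ratio of 2.97 (2.87 to 3.07). Hexa (a subunit of beta-hexosaminidase), Gaa (acid alpha-glucosidase, which degrades glycogen) and Gusb (beta-glucuronidase) had ratios of 1.48, 1.29 and 1.21. Of these 4, only Psap counted as higher in each alternative setting that recomputed its ratio. Npc1, the membrane protein that exports cholesterol from the lysosome, had 32.3 CPM in ST-HSC and 9.85 CPM in LT-HSC, a ratio of 3.28 (3.02 to 3.58). Npc2, its soluble partner, had a ratio of 1.41. The abundant membrane glycoproteins parted: Lamp1 was 1.49-fold lower in ST-HSC (86.5 CPM against 129 CPM in LT-HSC; 1.45 to 1.54), while Lamp2 stood at 88.4 CPM in ST-HSC and 71.3 CPM in LT-HSC, a ratio of 1.24 (1.20 to 1.28). Cd63, a tetraspanin of late endosomes, and Mcoln1, a calcium channel of the lysosome, had ratios of 0.856 and 0.914.

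Tfeb had 13.8 CPM in ST-HSC and 5.07 CPM in LT-HSC, a ratio of 2.72 (2.41 to 3.07). Its paralogue Tfe3 stood at 13.4 CPM in ST-HSC and 13.1 CPM in LT-HSC, a ratio of 1.03 (0.943 to 1.12). Only the first of these factors thus passed the limit in the whole libraries. The proton pump, the V-type ATPase that acidifies lysosomes, differed little: the 5 subunits or accessory proteins had ratios from 1.0 (Atp6v1h) to that of Atp6v1a (51.1 CPM in ST-HSC and 40.9 CPM in LT-HSC), which just counted as higher.

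The autophagy genes went in different directions in the whole libraries. Atg7, the E1-like enzyme of ATG8 coupling, had 57.0 CPM in ST-HSC and 26.4 CPM in LT-HSC, a ratio of 2.15 (2.04 to 2.27). Ulk1, the kinase that starts autophagy, and Rb1cc1 (FIP200), a scaffold of its complex, had ratios of 1.70 (1.57 to 1.84) and 1.38 (1.34 to 1.43). Becn1 and Atg5 had ratios of 1.02 and 1.01. All 5 ATG8 genes had ratios below 1, under every scaling used. Map1lc3a (LC3A) was 1.51-fold lower in ST-HSC, at 18.6 CPM against 28.2 CPM in LT-HSC (interval 1.42 to 1.61). Gabarapl2 was 1.39-fold lower, at 79.9 CPM in ST-HSC against 111 CPM in LT-HSC (1.34 to 1.43). Map1lc3b (LC3B), Gabarap and Gabarapl1 stood between the limits, with ratios of 0.849, 0.842 and 0.926. Sqstm1, for p62, had 86.6 CPM in ST-HSC and 73.0 CPM in LT-HSC, a ratio of 1.19 (1.14 to 1.23). Over all kept cells Ulk1, Rb1cc1 and Atg7 were thus higher, while 2 of the 5 genes for the ATG8 proteins themselves were lower. For Ulk1 and Rb1cc1 this did not hold within narrower groups of cells. Their ratios were 1.06 and 1.01 in Hlf-high cells, and 1.21 and 1.05 in cells outside the classes, all between the limits.

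**Figure D1:**
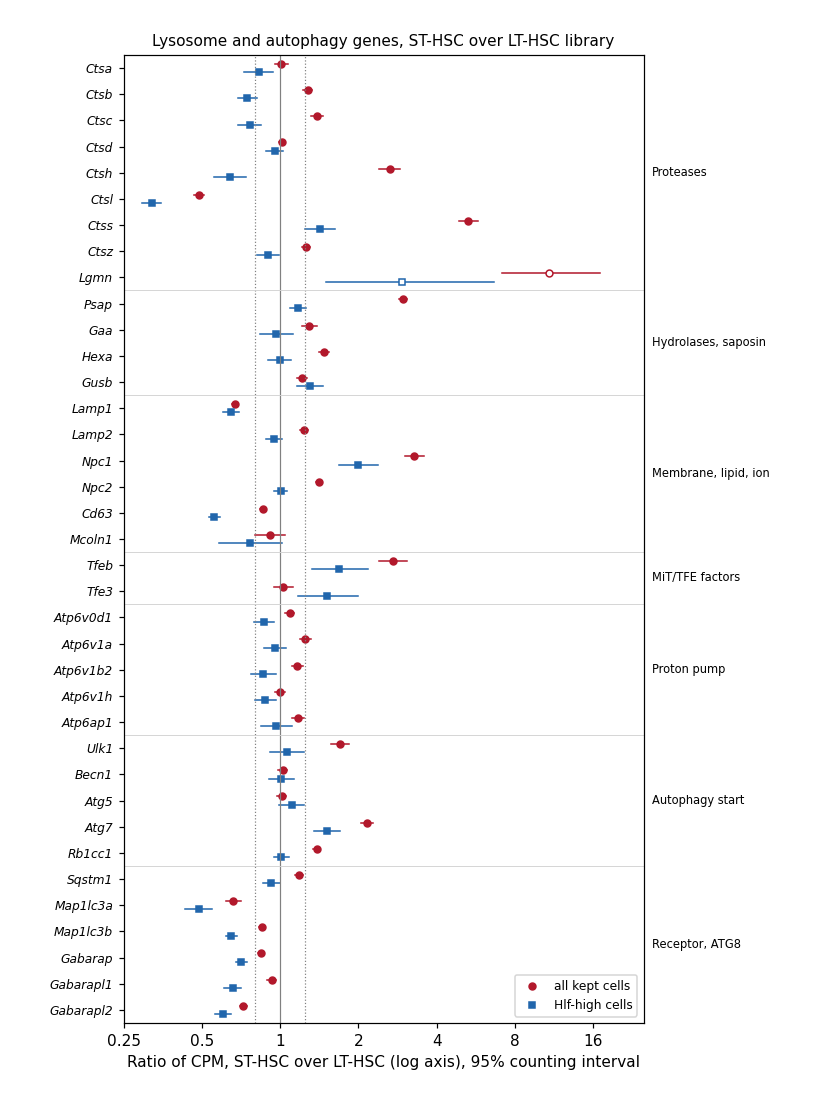
Ratio of CPM, ST-HSC over LT-HSC, of each of the 37 members on a log axis, in all kept cells (red circles) and in Hlf-high cells (blue squares), with 95% counting intervals; dotted lines mark 0.8 and its inverse, and open symbols mark a mean CPM under 5. Ctss at 5.30 is the highest filled circle and Ctsl at 0.487 the lowest, and most blue squares lie left of the red circle of the same gene.

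The libraries differ in the mix of their cells. In ST-HSC, a small group of cells gave a large part of the UMIs of some members. In the ST-HSC library 293 cells outside the classes (4.41% of kept cells) held at least 10 UMIs per 10000 of 10 dendritic or macrophage genes; in LT-HSC 12 cells outside the classes did (0.441%). These dendritic-gene-high cells gave 43.8% of all Ctsh UMIs of the ST-HSC library, 37.3% of Psap, 31.2% of Ctss, 17.4% of Lgmn and 13.4% of Ctsz. They gave 2.16% of Npc1, 3.63% of Atg7 and 3.22% of Ctsl. The 10 genes summed to 15242 CPM in them against 398 CPM in the Hlf-high cells of the same library, a difference that the rule for choosing these cells fixes. Over the whole libraries the 10 genes summed to 965 CPM in ST-HSC and 279 CPM in LT-HSC. With every cell high in these genes left out, the ST-HSC over LT-HSC ratio was 1.35 for Ctsh, 1.80 for Psap, 3.89 for Ctss and 1.06 for Ctsz, and it was 3.35 for Npc1, 2.17 for Atg7 and 2.56 for Tfeb. The number of higher members was then 11 of 36, against 38.7% of genes, and 4 were lower, against 22.7%.

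**Figure D2:**
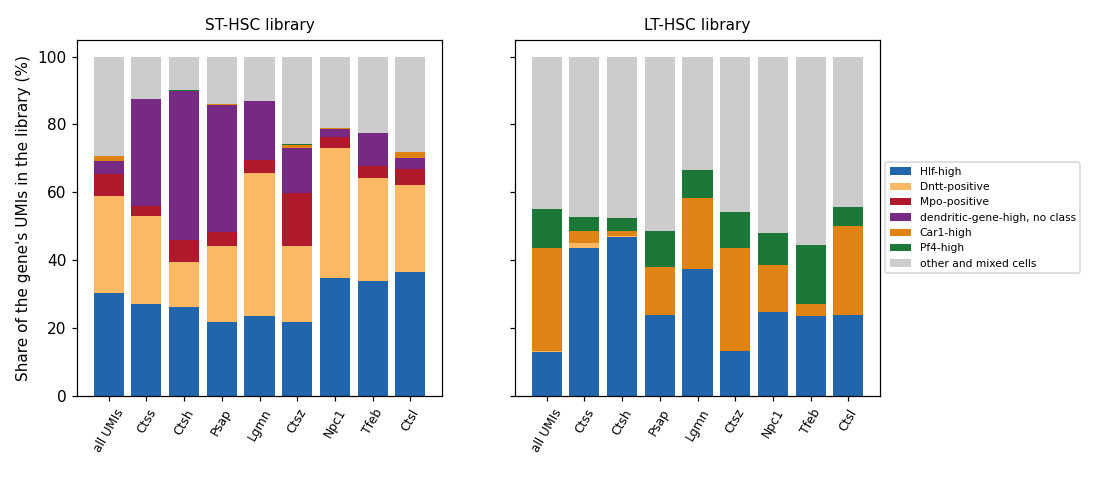
Share of a gene's UMIs, in percent of the library, that each class of cells gave, for all UMIs and 8 members, ST-HSC left and LT-HSC right; the purple part is the dendritic-gene-high cells in no class. The purple part is largest for Ctsh (43.8%), Psap (37.3%) and Ctss (31.2%) in ST-HSC, and Hlf-high cells gave 46.8% of Ctsh and 43.6% of Ctss in LT-HSC.

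Within Hlf-high cells the comparison of the libraries gave another order. Of 36 members compared, 6 were higher in ST-HSC Hlf-high cells (16.7%, against 28.1% of 10742 genes) and 12 were lower (33.3%, against 25.5%). None reached a ratio of 2, against 5.93% of genes, and 2 were at 0.5 or under (5.56%, against 4.24%). The median log2 ratio was -0.10 over the members and 0.01 over all genes. The list as a whole held 0.252% of UMIs in ST-HSC Hlf-high cells and 0.308% in LT-HSC Hlf-high cells, the reverse of the order in the whole libraries. Markers of cell types differed between these cells too, in both directions. The 7 lymphoid markers summed to 447 CPM in ST-HSC and 36.7 CPM in LT-HSC Hlf-high cells, with 4 of 4 compared higher. Flt3 alone gave 273 CPM of the ST-HSC sum and 18.1 CPM of the LT-HSC sum. The 7 megakaryocyte markers summed to 68.8 CPM in ST-HSC and 176 CPM in LT-HSC, with 4 of 5 compared lower, and the 7 erythroid markers to 30.2 and 92.1 CPM in ST-HSC and LT-HSC. Of the 8 stem cell markers 6 were lower, as given above. The 7 neutrophil and monocyte markers summed to 408 CPM in ST-HSC and 519 CPM in LT-HSC, with 1 higher and 1 lower of 2 compared. The 6 T or NK cell markers summed to 81.6 CPM in ST-HSC and 29.1 CPM in LT-HSC, with the 1 compared higher. The 10 dendritic or macrophage genes summed to 398 CPM in ST-HSC and 363 CPM in LT-HSC, with 1 gene at 0 in each. Most of that sum was Cst3 (353 CPM in ST-HSC and 347 CPM in LT-HSC), and the other two genes compared were higher, Irf8 at 21.6 CPM in ST-HSC against 6.03 CPM in LT-HSC and Naaa at a ratio of 1.46. Genes of the sorting gates also differed between the Hlf-high cells of the libraries. Flt3, Cd48 and Cd34 had ratios of 15.1, 14.3 and 3.76, and Slamf1 was 28.0-fold lower in ST-HSC. Ly6a (Sca-1) was 1.27-fold lower, and Kit had a ratio of 1.01. The part of these markers and gate genes in the members' ratios was not tested. Cycling cells made up 11.0% of Hlf-high cells in ST-HSC and 1.33% in LT-HSC, and leaving them out kept the counts at 6 higher and 12 lower.

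All 5 ATG8 genes were lower in ST-HSC Hlf-high cells, and each stayed at or under 0.8 in all 13 alternatives that recomputed its ratio. Map1lc3a had 24.1 CPM in ST-HSC and 49.5 CPM in LT-HSC, 2.06-fold lower (1.83 to 2.32). Gabarapl2, also known as GATE-16, had 87.7 CPM in ST-HSC and 146 CPM in LT-HSC, 1.66-fold lower (1.55 to 1.78). Map1lc3b had 183 CPM in ST-HSC and 283 CPM in LT-HSC, 1.54-fold lower (1.47 to 1.62). Together with Gabarapl1 (74.6 CPM in ST-HSC, 114 CPM in LT-HSC; 1.53-fold lower, 1.41 to 1.64) and Gabarap (174 CPM in ST-HSC, 246 CPM in LT-HSC; 1.41-fold lower, 1.34 to 1.49), the family covered a narrow range of folds. Sqstm1, whose product binds these proteins, stood at 99.6 CPM in ST-HSC and 108 CPM in LT-HSC, a ratio of 0.924 (0.859 to 0.996), so the receptor did not pass the limit with them.

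Ctsl had the lowest ratio of any member in Hlf-high cells, 38.3 CPM in ST-HSC against 119 CPM in LT-HSC, 3.12-fold lower (2.87 to 3.39). Cd63 was 1.79-fold lower (172 CPM in ST-HSC and 308 CPM in LT-HSC; 1.71 to 1.88). Lamp1 was 1.55-fold lower, with 77.1 CPM in ST-HSC and 119 CPM in LT-HSC (1.44 to 1.67), while Lamp2, at 103 CPM in ST-HSC and 109 CPM in LT-HSC, had a ratio of 0.945 (0.878 to 1.02). These 3 lower genes encode a soluble protease and membrane proteins, so the lower genes were not confined to autophagy. Ctsh, Ctsb and Ctsc stood at 0.639 (0.554 to 0.738), 0.747 (0.685 to 0.814) and 0.763 (0.689 to 0.846), all on the other side of 1 from their ratios in the whole libraries. Mcoln1 also counted as lower, at 0.765, on 217 UMIs in ST-HSC and 71 in LT-HSC, with an interval up to 1.01.

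The higher genes of Hlf-high cells were Npc1, Tfeb, Tfe3, Atg7, Ctss and Gusb. Npc1 had 37.1 CPM in ST-HSC and 18.6 CPM in LT-HSC, a ratio of 2.0 (1.69 to 2.37; just short of the limit of 2 before rounding). Tfeb had 15.4 CPM in ST-HSC and 9.10 CPM in LT-HSC, a ratio of 1.69 (1.33 to 2.18), from 520 and 77 UMIs. Tfe3 had 12.0 CPM in ST-HSC and 7.92 CPM in LT-HSC, a ratio of 1.52 (1.17 to 2.0), from 407 and 67 UMIs. Both transcription factors of the list were thus higher in ST-HSC Hlf-high cells, on low counts in LT-HSC; with the class limits halved or doubled, the smaller of the resulting Tfe3 ratios was 1.20, which is no call. Atg7 had a ratio of 1.51 (1.35 to 1.70; 64.4 CPM in ST-HSC and 42.6 CPM in LT-HSC), Ctss one of 1.42 (1.24 to 1.63; 42.8 and 30.2 CPM in ST-HSC and LT-HSC), and Gusb one of 1.30 (1.16 to 1.47). Psap, nearly 3-fold higher in the whole ST-HSC library, had a ratio of 1.17 (lower bound 1.09) in Hlf-high cells. Proton pump genes stayed between the limits, with ratios from 0.861 to 0.964.

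In the 2077 ST-HSC and 1409 LT-HSC cells that no class held, a comparison added after seeing the data, 10 of 36 members were higher (27.8%, against 28.2% of 10401 genes) and 7 lower (19.4%, against 21.6%). At limits of 2 and 0.5, 4 were higher (11.1%, against 6.28%) and 2 lower (5.56%, against 3.1%). Atg7, Ctss, Npc1 and Tfeb were higher here too (ratios 1.73, 6.79, 1.95 and 2.14), and Ctsl, Lamp1, Map1lc3a, Gabarapl2 and Cd63 were lower (0.473, 0.722, 0.476, 0.694 and 0.575). Of the ATG8 genes, Map1lc3b and Gabarapl1 counted as lower as well, at 0.795 and 0.736, and Gabarap stood at 0.904. Dendritic-gene-high cells made up 14.1% of these cells in ST-HSC and 0.852% in LT-HSC. Without them 5 members were higher, against 27.7% of genes, and 8 lower, against 20.7%, and the ratios of Atg7, Ctss, Npc1 and Tfeb were 1.70, 2.5, 2.0 and 1.73. The 10 dendritic or macrophage genes summed to 2053 CPM in these ST-HSC cells and 315 CPM in these LT-HSC cells, the lymphoid markers to 447 and 12.6 CPM, and the megakaryocyte markers to 48.7 and 302 CPM. Npc1, Tfeb, Atg7 and Ctss were thus higher, and Ctsl, Lamp1, Map1lc3a and Gabarapl2 lower, in the whole libraries, in Hlf-high cells and in cells of no class; the first of these sets contains the cells of the other 2.

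Within the ST-HSC library, Dntt-positive cells differed little from Hlf-high cells in these genes. None of 36 members was higher (against 7.55% of 10518 genes) and 6 were lower (16.7%, against 12.2%). At limits of 2 and 0.5 these were 0 (against 0.761% of genes) and 1 (2.78%, against 1.47%). Cd63 had 80.5 CPM in Dntt-positive cells and 172 CPM in Hlf-high cells, 2.13-fold lower (2.04 to 2.23). Ctsh had 10.8 CPM in Dntt-positive and 20.4 CPM in Hlf-high cells, 1.89-fold lower (1.66 to 2.15). Map1lc3a, Ctsl and Sqstm1 were 1.36-, 1.35- and 1.28-fold lower, and Atp6v1a 1.26-fold; of the 6, only Cd63 and Ctsh kept their call in every alternative that recomputed the ratio. Tfeb and Tfe3 had ratios of 0.945 and 1.08, and Lamp1 one of 1.01 (0.953 to 1.06). Dntt-positive cells were deeper, with a median of 16578 UMIs against 10509 in Hlf-high cells, so that they held more UMIs of the list per cell (44.5 against 33.0) at a lower share of all UMIs (0.226% against 0.252%). The Dntt limit is a count of UMIs in the cell, which deeper cells reach more easily.

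Scaled to CPM, the higher members in Mpo-positive cells of the ST-HSC library were all lysosomal, and no autophagy member was higher. This split depended in part on the scaling, as given below. Of 36 members, 10 were higher than in Hlf-high cells (27.8%, against 20.7% of 10348 genes) and 15 lower (41.7%, against 47.8%). The 15 include Mcoln1, at 4.35 CPM in Mpo-positive and 6.42 CPM in Hlf-high cells. It entered only through its level in Hlf-high cells, so its ratio could only be below 1. At limits of 2 and 0.5, 2 were higher (5.56%, against 4.59%) and 4 lower (11.1%, against 17.2%). Ctsz, for the carboxypeptidase cathepsin Z, had 200 CPM in Mpo-positive cells and 59.0 CPM in Hlf-high cells, a ratio of 3.40 (3.17 to 3.64). Hexa had 118 CPM in Mpo-positive and 54.5 CPM in Hlf-high cells, a ratio of 2.17 (2.0 to 2.36). Lamp1, Cd63, Gusb, Npc2, Ctsb, Ctsa and Ctsd were higher too, at ratios from 1.28 (Ctsd) to 1.88 (Lamp1), as was the proton pump accessory protein Atp6ap1 at 1.34. Of 30 hydrolases outside the 37, 6 were higher (20%) and 12 lower (40%), and of 19 other membrane genes 2 were higher (10.5%) and 9 lower (47.4%). Of 12 other proton pump genes 6 were higher (50%) and none lower. The lower members included Ulk1, with 12.3 CPM in Mpo-positive and 28.0 CPM in Hlf-high cells, 2.27-fold lower (1.82 to 2.86), Npc1, 2.22-fold lower (1.84 to 2.70), and Gabarapl1, 2.04-fold lower (1.80 to 2.33). Map1lc3a, Map1lc3b, Gabarapl2 and Sqstm1 were lower at ratios from 0.490 to 0.734, as were Atg7 (0.616), Rb1cc1 (0.581), Tfeb (0.529) and Tfe3 (0.687). Of the 11 autophagy members 8 were lower and none was higher, and Gabarap, Becn1 and Atg5 stood between the limits. Of 28 other autophagy genes 2 were higher (7.14%) and 20 lower (71.4%). The scaling matters here: the higher share of all calls was 30.3%, but 51.2% with TMM factors and 53.9% with the median of ratios. With these, 16 and 17 members were higher, against 34.0% and 36.0% of genes, and 10 lower, against 32.4% and 30.9%. Gabarap passed the upper limit in 2 of 13 alternatives, at a ratio of up to 1.33, and Becn1 in 1, at 1.27. Map1lc3b and Gabarapl2 kept their lower call in 11 of 13. Dendritic-gene-high cells made up 18.7% of Mpo-positive cells and 1.55% of Hlf-high cells. Without them 9 members were higher, against 20.3% of genes, and 17 lower, against 46.9%.

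The dendritic-gene-high cells of the ST-HSC library, set against its Hlf-high cells after seeing the data, held 0.565% of their UMIs in the list against 0.252%. Of 37 members 17 were higher (45.9%, against 20.2% of 10487 genes) and 11 lower (29.7%, against 50.1%), and 11 reached a ratio of 2 (29.7%, against 9.07%), while 5 were at 0.5 or under (13.5%, against 20.9%). Psap had 1863 CPM in these cells and 136 CPM in Hlf-high cells, a ratio of 13.7 (13.2 to 14.2). Ctsh had 272 CPM in them and 20.4 CPM in Hlf-high cells, a ratio of 13.4 (12.1 to 14.7). Ctss had 395 CPM in them and 42.8 CPM in Hlf-high cells, a ratio of 9.23 (8.60 to 9.91). Lgmn entered only through its level in these cells and could only be higher. The 11 lower members include Mcoln1, at 4.96 CPM in these cells and 6.42 CPM in Hlf-high cells. It entered only through its level in Hlf-high cells, so its ratio could only be below 1. Of the 9 proteases 7 were higher, but Ctsd was 2.62-fold lower (41.1 CPM in these cells and 108 CPM in Hlf-high cells) and Cd63 4.98-fold lower (34.5 and 172 CPM). Ulk1 and Gabarapl1 were 3.83- and 3.47-fold lower, while Gabarap was 2.04-fold higher, so members of the ATG8 family went in both directions in these cells. Tfeb and Tfe3 had ratios of 2.24 and 1.63.

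**Figure D3:**
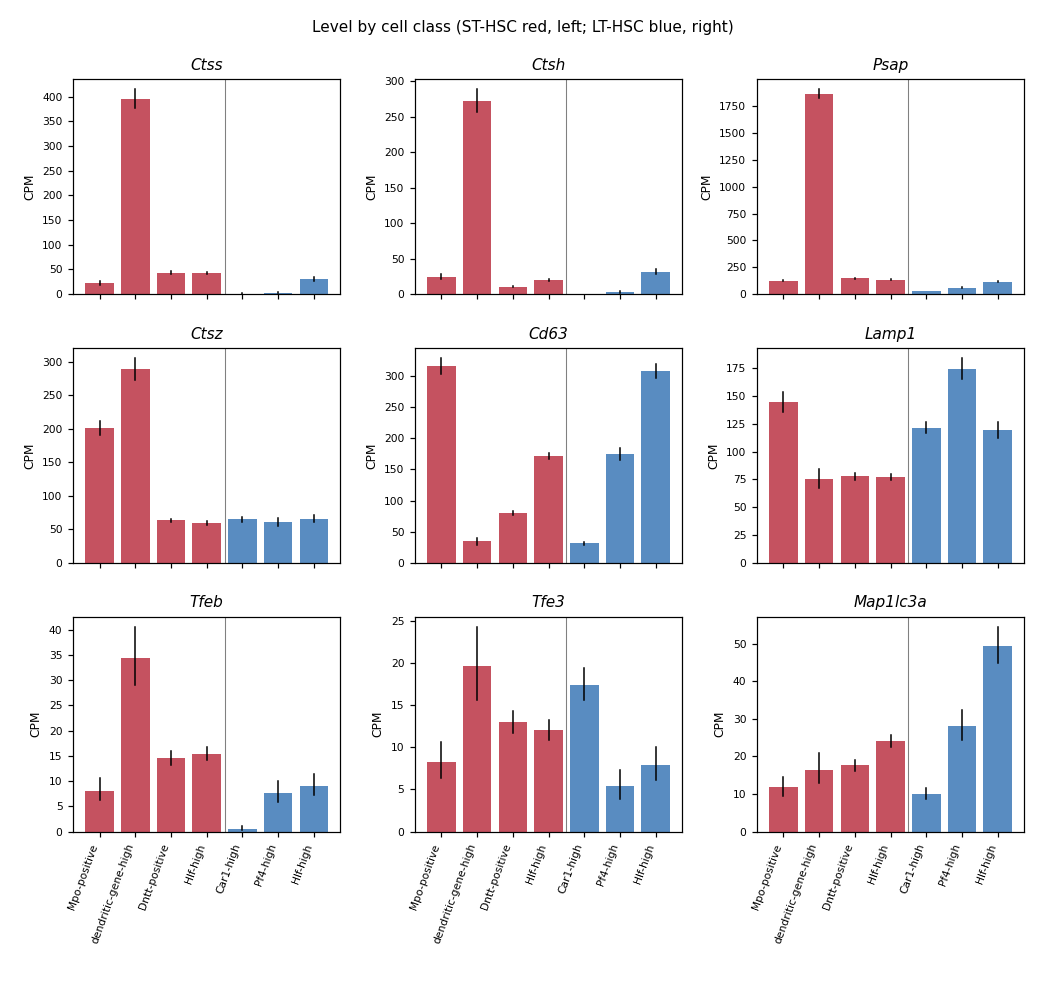
Level in CPM of 9 members in each class of cells (bars; linear axes from 0; lines are 95% Poisson counting intervals), ST-HSC in red at the left and LT-HSC in blue at the right of each panel. Psap, Ctsh and Ctss peak in dendritic-gene-high cells (1863, 272 and 395 CPM), Cd63 is high in Mpo-positive ST-HSC and in Hlf-high LT-HSC cells (315 and 308 CPM), and Tfe3 is higher in Car1-high than in Hlf-high LT-HSC cells (17.4 and 7.92 CPM).

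In the LT-HSC library, Car1-high cells held the lowest share of the list of the classes compared, 0.169% of UMIs against 0.308% in Hlf-high cells. Of 35 members compared 26 were lower (74.3%, against 54.5% of 10276 genes), 16 of them at 0.5 or under (45.7%, against 32.9%), and 1 was higher (2.86%, against 24.7%), also at a limit of 2 (against 10.2%). Ctsh, Ctss, Npc1 and Mcoln1 entered only through their level in Hlf-high cells, so their ratios could only be below 1. Ctsh had 8 UMIs in Car1-high cells (0.407 CPM) and 270 UMIs in Hlf-high cells (31.9 CPM), 78.3-fold lower (39.2 to 183). Ctss had 22 UMIs (1.12 CPM) in Car1-high and 255 UMIs (30.2 CPM) in Hlf-high cells, 26.9-fold lower (17.4 to 43.7). Cd63 had 31.6 CPM in Car1-high and 308 CPM in Hlf-high cells, 9.72-fold lower (8.90 to 10.6). Ctsc, which activates granule proteases, was 5.75-fold lower (4.87 to 6.81) and Map1lc3a 4.96-fold lower (4.18 to 5.91). These are the members with the largest folds, and they span proteases, membrane and autophagy.

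Other members held their level in Car1-high cells. Lamp1 had 122 CPM in Car1-high and 119 CPM in Hlf-high cells, a ratio of 1.02 (0.946 to 1.10), and Lamp2 was 2.37-fold lower (46.0 and 109 CPM in Car1-high and Hlf-high cells). Becn1, Ctsz and Ctsd had ratios of 1.01, 0.985 and 0.957, and Atg5 one of 1.16. Tfe3 was the only higher member, with 17.4 CPM in Car1-high and 7.92 CPM in Hlf-high cells, a ratio of 2.20 (1.69 to 2.90). Tfeb, which missed the level limit, had 12 UMIs (0.611 CPM) in Car1-high and 77 UMIs (9.10 CPM) in Hlf-high cells, 14.9-fold lower (8.06 to 30.1), so the paralogues differed in opposite directions. Tfe3 was higher with TMM and median-of-ratios factors too, but with the class limits doubled its log2 ratio was 0.19, which is no call. Depth and scale bear on these values: Car1-high cells held a median of 39551.5 UMIs against 11690.5, so Lamp1 had 5.21 UMIs per Car1-high cell and 1.68 per Hlf-high cell at the same CPM. The list as a whole gave 72.3 UMIs per Car1-high cell and 43.4 per Hlf-high cell. The higher share of all calls was 31.2%, but 58.8% with TMM factors and 60.4% with the median of ratios, which moved the median log2 ratio of all genes from -0.46 to 0.22 and 0.27. With TMM factors 10 members were higher, against 46.8% of genes, and 16 lower, against 32.8%. With the median of ratios 11 were higher, against 48.4%, and 16 lower, against 31.7%. Under both, 8 members moved to the other side of 1. Npc2, Atp6v1h, Gabarap and Gabarapl2 had counted as lower, and Ctsa, Ctsd, Ctsz and Atp6ap1 had stood between the limits. Of the 26 lower members 16 kept their call in each alternative that recomputed their ratio, among them Cd63, Ctsc and Map1lc3a. The 16 include Ctsh, Ctss and Npc1, whose ratios could only be below 1.

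Pf4-high cells shared part of this pattern. Of 36 members 24 were lower than in Hlf-high cells (66.7%, against 42.5% of 10480 genes), 7 of them at 0.5 or under (19.4%, against 16.2%), and 2 were higher (5.56%, against 22.9%), none of them at a limit of 2 (against 6.66%). Ulk1 was 3.91-fold lower (6.75 CPM in Pf4-high and 26.4 CPM in Hlf-high cells; 2.86 to 5.42), Ctsl 3.84-fold (3.33 to 4.46) and Npc1 2.33-fold (1.72 to 3.20). The lower count includes Ctsh and Ctss, which entered only through their level in Hlf-high cells and could only be lower. Ctsh had 23 UMIs in Pf4-high cells (3.10 CPM) against 31.9 CPM in Hlf-high cells, 10.3-fold lower (6.71 to 16.5), and Ctss, also with 23 UMIs in Pf4-high cells, was 9.71-fold lower (6.33 to 15.6). The higher members were Lamp1, with 174 CPM in Pf4-high and 119 CPM in Hlf-high cells, a ratio of 1.46 (1.34 to 1.59), and Gusb, at 1.36 (1.17 to 1.57). Sqstm1 and all 5 ATG8 genes were lower, at ratios from 0.440 (Sqstm1) to 0.785 (Gabarap). Of the 24 lower members 20 kept their call in each alternative that recomputed their ratio. Gabarap and Gabarapl2 were not among these 20, nor were Tfe3 and Mcoln1. With TMM factors 3 members in all were higher, against 35.0% of genes, and 21 lower, against 29.4%. Median-of-ratios factors gave the same counts, against 36.1% and 28.7% of genes. The higher share of all calls, 35.0% here, was 54.3% and 55.7% under these factors. Pf4-high and Car1-high cells were set against the same Hlf-high cells, so their values are not independent.

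**Figure D4:**
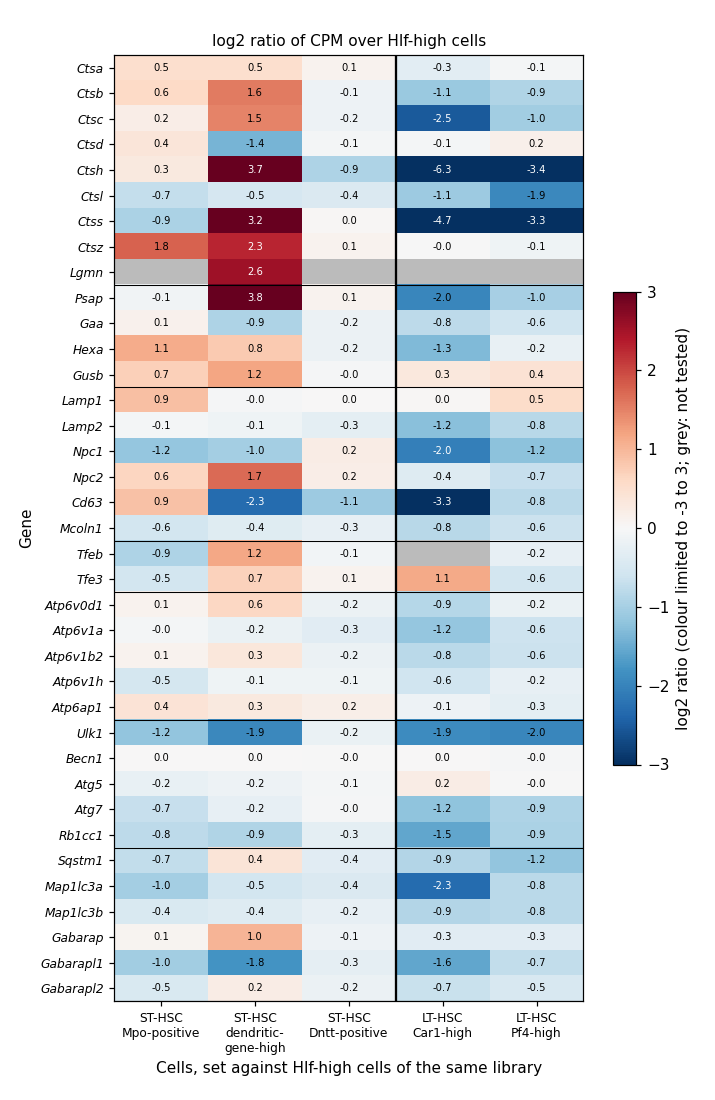
log2 ratio of CPM of each of the 37 members in a class of cells over Hlf-high cells of the same library, as colour and number; ST-HSC classes left of the thick line, LT-HSC classes right of it, grey where the mean CPM was under 5. Psap at 3.8 and Ctsh at 3.7 in dendritic-gene-high cells and Ctsh at -6.3 in Car1-high cells mark the extremes, and the LT-HSC columns are mostly blue.

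Cell cycle moved with some members. In the ST-HSC library 1088 cells (16.4%) counted as cycling, and in LT-HSC 216 (7.94%). In ST-HSC cycling cells against the other ST-HSC cells, also set side by side after seeing the data, none of 36 members was higher (against 11.1% of 10448 genes) and 11 were lower (30.6%, against 16.4%). At limits of 2 and 0.5 these were 0 (against 3.08%) and 2 (5.56%, against 1.4%). Ctss was 2.18-fold lower (24.97 CPM in cycling and 54.5 CPM in other cells), Ctsh 2.05-fold, Cd63 1.99-fold and Ctsl 1.87-fold. Sqstm1 was 1.59-fold lower, with 59.3 CPM in cycling and 94.5 CPM in other cells. Lamp1, Gabarapl2, Atg5, Atg7 and Mcoln1 had ratios between 0.998 and 1.04. Cycling cells were deeper, with a median of 20032.5 UMIs against 11841. They also differed in markers of other cell types. The dendritic or macrophage genes summed to 646 CPM in cycling and 1058 CPM in other cells (6 of 6 compared lower), the neutrophil and monocyte markers to 437 and 1697 CPM (5 of 5 lower), and the erythroid markers to 962 and 467 CPM (7 of 7 higher). Without dendritic-gene-high cells 10 members were lower, against 16.5% of genes, and Ctss and Ctsh stood at ratios of 0.437 and 0.358. The part of the other markers was not tested.

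Genes of the same pathways outside the 37 gave the following counts in the library comparison, to be read against 38.5% of all genes higher and 23% lower. Of 28 other hydrolases compared 13 were higher (46.4%) and 2 lower (7.14%) in ST-HSC, led by Arsb (arylsulfatase B; 70.3 CPM in ST-HSC and 11.2 CPM in LT-HSC, a ratio of 6.28, 5.82 to 6.78) and Ppt1 (palmitoyl-protein thioesterase; 2.61), with Galns and Manba at 2.27 and 2.11. Of 19 other membrane genes 10 were higher (52.6%) and 3 lower (15.8%), with Cd68, Laptm4b, Laptm5 and Abca2 at 3.73, 3.48, 1.87 and 1.85. Among 19 genes that sort proteins or vesicles to lysosomes 11 were higher (57.9%) and 2 lower (10.5%), and Gnptab, which adds the mannose 6-phosphate tag of lysosomal enzymes, had 86.9 CPM in ST-HSC and 32.2 CPM in LT-HSC, a ratio of 2.70 (2.57 to 2.83). Vps18, Sort1 and Plekhm1 followed at 2.47, 1.99 and 1.94. Of 28 other autophagy genes 15 were higher (53.6%) and 2 lower (7.14%), with Uvrag, Atg10, Pik3r4 and Wipi2 at 2.82, 2.68, 1.96 and 1.94. Atg10, the E2-like enzyme that joins ATG12 to ATG5, thus stood with Atg7. The other proton pump genes did not lean to either side, with 2 higher and 2 lower of 12 (16.7% each): Tcirg1 and Atp6ap2 at 1.90 and 1.35, and Atp6v0e and Atp6v0c 1.52- and 1.26-fold lower.

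The mitophagy and selective autophagy receptors held the largest lower fold of these lists. Of 10, 4 were higher (40%, near the 38.5% of all genes) and 4 lower (40%, against 23%): Optn (optineurin) had 20.7 CPM in ST-HSC and 74.2 CPM in LT-HSC, 3.59-fold lower, and Bnip3l (NIX) had 98.5 CPM in ST-HSC and 164 CPM in LT-HSC, 1.66-fold lower. Phb2 was 1.61-fold lower, and Nbr1 had a ratio of 1.57. Optn stood at 110 CPM in Car1-high and 17.4 CPM in Hlf-high LT-HSC cells, a ratio of 6.33 (5.36 to 7.54), and in Hlf-high cells it was 1.32-fold lower in ST-HSC. Of 24 genes of mTORC1 and nutrient sensing, the kinase complex that sits on lysosomes and restrains TFEB, 9 were higher (37.5%, near the background) and 4 lower (16.7%). Rptor, the scaffold of mTORC1, had 97.9 CPM in ST-HSC and 39.9 CPM in LT-HSC, a ratio of 2.46 (2.35 to 2.57), while Rraga, a Rag GTPase that recruits it, was 1.96-fold lower (29.6 and 57.9 CPM in ST-HSC and LT-HSC). Sesn1 and Depdc5 had ratios of 1.88 and 1.86. The remaining MiT/TFE genes, Mitf and Tfec, had ratios of 2.03 and 1.54.

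In Hlf-high cells, where 28.1% of all genes were higher and 25.5% lower, these lists went in different directions. The other proton pump genes had 2 higher (16.7%) and 7 lower (58.3%) of 12 in ST-HSC, while none of the 5 proton pump members passed a limit; the lower genes were led by Atp6v0c (153 CPM in ST-HSC and 233 CPM in LT-HSC, 1.52-fold lower), Atp6v0a1 (1.44-fold), Atp6v0e (1.43-fold) and Atp6v1d (1.39-fold). The receptors had 0 higher and 4 lower (40%) of 10, with Bnip3, Bnip3l, Fundc1 and Optn 1.83-, 1.59-, 1.36- and 1.32-fold lower. Sorting genes leaned higher, with 10 higher (52.6%) and 4 lower (21.1%) of 19, with Gnptab at 2.08, Gga3 at 1.64 and Plekhm1 at 1.58, and Igf2r, a mannose 6-phosphate receptor, 1.62-fold lower. Other autophagy genes had 11 higher (39.3%) and 6 lower (21.4%) of 28, with Uvrag, Wipi2 and Atg10 at 1.95, 1.83 and 1.63 and Wipi1 1.89-fold lower. Other hydrolases had 6 higher (19.4%) and 7 lower (22.6%) of 31 (Arsb 2.84 and Galns 1.75; Ctsf and Asah1 2.49- and 1.80-fold lower), and other membrane genes 6 higher (30%) and 4 lower (20%) of 20 (Tpcn1 2.02, Abca2 1.57 and Cd68 1.5; Laptm4a 1.85-fold lower). Of 25 nutrient-sensing genes 10 were higher (40%) and 6 lower (24%): Rptor and Depdc5 at 2.37 and 1.73, and Rraga and Lamtor3 2.29- and 1.97-fold lower. Mitf and Tfec stood between the limits, at 1.13 and 0.934.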

How the data were processed

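The authors deposited UMI counts, 1 matrix per library, unnormalized. Per the submitters' processing notes these counts came from Cell Ranger 7.2 on mm10, and per the file headers from Cell Ranger 7.1.0. Whether intronic reads were counted is not given in the sources used here, and would affect genes with long introns. Deposited were 7586 ST-HSC and 2938 LT-HSC barcodes. Counts of kept cells were summed and scaled to CPM. Ratios carry exact conditional binomial (Clopper-Pearson) and levels exact Poisson 95% intervals (scipy 1.17.1). These cover counting error only. The interval was tested on simulated data. Scrublet (scanpy 1.11.5) marked none of the 6648 ST-HSC cells and 0.257% of LT-HSC cells (7 of 2722), which was taken as a failed threshold. No doublets were removed in the values above, and leaving out the 6% with the highest scores was an alternative. edgeR 4.0.16 gave TMM factors.

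The members and lists were chosen with earlier results of these data known. Named in full were members with a ratio of at least 2 or at most 0.5 in the library or Hlf-high comparison, both MiT/TFE factors, the ATG8 genes, Sqstm1, Lamp1 and Lamp2, the 5 largest log2 ratios per class, and up to 4 genes per other list. Some other members named were chosen after their values were seen. Mpo-positive cells had at least 3 Mpo UMIs and 5 per 10000, Dntt-positive cells at least 2 Dntt UMIs, Car1-high cells at least 50 and Pf4-high cells at least 10 UMIs per 10000. Cells meeting 2 limits were left out of all classes (44 ST-HSC and 1 LT-HSC). Cycling cells had at least 0.5% of UMIs in cell cycle genes. No member overlapped another gene on its strand in GENCODE M21.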

Additional observations from a re-analysis of the deposited data

Results flagged for a closer look

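Ctsb and Ctsh stood on opposite sides of 1 in different cells of the same libraries. Ctsb had an ST-HSC over LT-HSC ratio of 1.39 in cells of no class and 0.747 in Hlf-high cells. Ctsh had a ratio of 4.14 in cells of no class and 0.639 in Hlf-high cells. The difference between the cell groups was not tested, since there was 1 library per group. In cells of no class, dendritic-gene-high cells made up 14.1% in ST-HSC and 0.852% in LT-HSC, and without them the log2 ratio of Ctsh was -0.14.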

How the results depend on the processing

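No paired analysis was possible because each group has 1 library and no replicate numbers, and for the same reason no replicate could be left out. Of 166 counts of members recomputed over 15 settings, 140 were within 1.5 times the reported count. The library comparison had 7 lower members with TMM factors (against 31.0% of genes), and 9 higher and 7 lower with the median of ratios (30.2% and 31.8%). It had 8 higher by the mean over cells (34.1%), and 10 higher and 7 lower without Car1-high and Pf4-high cells (30.1% and 22.3%). At limits of 2 and 0.5 it had 6 higher and 1 lower. At those limits Hlf-high cells had 0 higher and 2 lower, Dntt-positive cells 1 lower, Mpo-positive cells 2 higher and 4 lower, Car1-high cells 16 lower and Pf4-high cells 0 higher and 7 lower. Dntt-positive cells had 1 higher member with no level filter (against 15.5% of genes), and 3 and 12 lower with the class limits halved and doubled (8.66% and 18.6%). Mpo-positive cells had 16 higher with TMM factors and 17 with the median of ratios (against 34.0% and 36.0% of genes). Car1-high cells had 10 higher and 16 lower with TMM factors (against 46.8% and 32.8% of genes), and 11 and 16 with the median of ratios (48.4% and 31.7%). They had 0 higher at a mean CPM of at least 20 (29.8%). Thinned to 5000 UMIs they had 3 higher (25.2%), with 281 ST-HSC and 68 LT-HSC cells left out. Among member ratios of these 6 comparisons, 139 of 2728 lay on the other side of 1 from the reported ratio, 130 of them for members between the limits and 9 for members that had counted as higher or lower. In Car1-high cells the log2 ratios of Npc2, Atp6v1h, Gabarap and Gabarapl2 were 0.30, 0.088, 0.33 and 0.018 with TMM factors and 0.35, 0.13, 0.38 and 0.064 with the median of ratios; Tfe3 in Pf4-high cells was 0.22 when thinned. Of those added later, Ctsl in dendritic-gene-high cells was 0.19 by the mean over cells, and Ctsh in cells of no class -0.14 without dendritic-gene-high cells. The cause was not tested. In the library comparison 8 of the 15 higher members and 4 of the 4 lower kept their call in each of the alternatives that recomputed their ratio, and in Hlf-high cells 4 of 6 and 10 of 12.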
